A study of Mus musculus with 36 samples.

Results

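The 10 genes described here, *Kdr*, *Flt1*, *Tie1*, *Tek*, *Cdh5*, *Pecam1*, *Esam*, *Cldn5*, *Emcn* and *Vwf*, are genes of the endothelium, the cell layer that lines blood vessels. They were chosen by name, and the choice also rested on *Kdr* and *Vwf* having been lower in the neocortex of *Chd8*+/- than of *Chd8*+/+ embryos. That comparison is therefore given as values without a test. All 10 genes were present in both count tables, which list 46603 genes, and all 10 passed the filter on low counts, which kept 18810 of them in the E12.5 libraries and 18435 in the E10.5 libraries.

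Vessels grow into the embryonic forebrain from a plexus on its surface. Neural progenitors secrete VEGF-A, which endothelial cells receive through the receptor tyrosine kinase encoded by *Kdr*, while the product of *Flt1* binds the same ligand tightly and signals weakly. *Tek* encodes the receptor of the angiopoietins and *Tie1* its related partner. *Cdh5*, *Pecam1*, *Esam* and *Cldn5* encode adhesion and tight junction proteins of the contacts between endothelial cells, *Emcn* encodes a sialomucin of the endothelial surface, and *Vwf* encodes von Willebrand factor, a clotting protein that endothelial cells and megakaryocytes store.

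RNA was sequenced from neocortices of single embryos at E12.5 and from telencephalic vesicles at E10.5, with RNA of 2 embryos pooled per library, all on the C57Bl/6J strain and all labelled as cortex. *Chd8* encodes a chromatin remodeller, and an allelic series was compared at E12.5 with n = 3 libraries per genotype. *Chd8*+/- embryos carried 1 null allele, made by deleting exon 3 with a β-actin Cre that was then bred out. *Chd8* neo/neo embryos, the mild hypomorphs, carried on each chromosome a selection cassette downstream of exon 3 that disturbs splicing, and *Chd8* neo/- embryos, the severe hypomorphs, carried 1 such allele and 1 null allele. These alleles were present in every cell type, the endothelium included. At E10.5, conditional knockouts (cKO, sox1-Cre; Chd8f/f, n = 3) were set against controls (Ctrl, n = 3) that the labels describe as a combination of Chd8f/f and Chd8 f/+. Both groups thus carried flanked alleles, and the Cre of the cKO is driven in the neural lineage, from which endothelial cells do not derive. Replicates came from different litters according to the methods of the study.

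The E12.5 libraries held from 38774591 to 61051667 counts each, and the E10.5 libraries from 49632937 to 68488879. *Chd8* itself was at 237 ± 2.41 CPM (counts relative to the TMM-adjusted library size, mean ± SD, n = 3) in *Chd8*+/+ libraries. It was lower in the mild hypomorphs (209 ± 5.64 CPM), the heterozygotes (167 ± 3.04 CPM) and the severe hypomorphs (149 ± 8.38 CPM), and ranged from 160 to 184 CPM in Ctrl and from 116 to 125 CPM in cKO. These are counts over all exons of the gene and do not measure intact transcript or protein. By quantitative RT-PCR on neocortices of an earlier stage, the paper reported fewer *Chd8* transcripts in both hypomorphs than in the heterozygotes. The counts of the mild hypomorphs do not follow that order. By Western blot the paper reported less full-length CHD8 in the mild hypomorphs than in the heterozygotes, and least in the severe hypomorphs. It also reported loss of CHD8 immunostaining in the cKO neural tube. *Emx1*, a marker of the dorsal telencephalon, was present in every library, from 24.1 to 69.3 CPM. Libraries with *Xist* over 100 CPM numbered 2 of 3 in *Chd8* neo/neo, 0 of 3 in *Chd8* neo/- and 1 of 3 in each of *Chd8*+/+ and *Chd8*+/-, so that sex was not balanced over the genotypes. The tissue was whole, and fewer endothelial cells cannot be told apart from less RNA of these genes per endothelial cell in any value that follows. Levels are shares of a library, so a different amount of neural tissue cannot be told apart from these either. The paper describes the neuroepithelium of cKO embryos at E10.5 as slightly thinner than that of controls.

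The sequence upstream of 4 of the genes is shown because levels of the 10 genes correlated with each other over the E12.5 libraries, to a differing degree, as described further on. The RefSeq promoter table (GRCm38.p6) held an entry for 6 of the 10 genes: *Kdr*, *Flt1*, *Tek*, *Tie1*, *Cldn5* and *Emcn*. Shown are the 250 bases before the transcription start of the 4 genes whose window ended within 3 bases of the gene start in the counting annotation, 5′ to 3′ on the strand of the gene. Capitals mark GGAA or its complement TTCC, the core letters bound by ETS factors, a family that includes well-known endothelial regulators.
Kdr (chr5:75978456-75978705, minus strand): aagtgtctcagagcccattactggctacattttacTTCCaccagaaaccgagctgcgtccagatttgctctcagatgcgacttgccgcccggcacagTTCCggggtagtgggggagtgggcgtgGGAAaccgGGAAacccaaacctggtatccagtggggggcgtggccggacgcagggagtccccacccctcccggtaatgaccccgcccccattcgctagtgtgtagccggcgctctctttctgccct
Flt1 (chr5:147726012-147726261, minus strand): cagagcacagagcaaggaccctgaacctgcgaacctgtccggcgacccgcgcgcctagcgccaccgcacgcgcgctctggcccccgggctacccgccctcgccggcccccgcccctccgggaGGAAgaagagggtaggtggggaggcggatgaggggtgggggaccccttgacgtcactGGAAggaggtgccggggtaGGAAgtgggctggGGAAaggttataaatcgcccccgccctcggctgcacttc
Tek (chr4:94739039-94739288, plus strand): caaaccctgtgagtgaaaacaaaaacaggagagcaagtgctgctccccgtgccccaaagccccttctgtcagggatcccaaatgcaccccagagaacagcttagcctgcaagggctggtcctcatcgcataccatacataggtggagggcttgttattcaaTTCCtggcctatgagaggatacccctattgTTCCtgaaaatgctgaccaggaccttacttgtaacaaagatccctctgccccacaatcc
Cldn5 (chr16:18776597-18776846, plus strand): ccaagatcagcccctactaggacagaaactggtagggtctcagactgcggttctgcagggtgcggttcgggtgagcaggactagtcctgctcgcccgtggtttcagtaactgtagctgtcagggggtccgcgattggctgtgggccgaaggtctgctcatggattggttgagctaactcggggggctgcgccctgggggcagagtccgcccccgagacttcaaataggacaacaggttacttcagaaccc
These windows held 4 matches in *Kdr*, 4 in *Flt1*, 2 in *Tek* and 0 in *Cldn5*. GGAA on either strand was in 93.4% of the 32851 windows of this length in the table, with a median of 3 per window, so its presence sets no gene apart. The longer forms CAGGAA or CCGGAA, each of which contains GGAA, occurred on either strand in 35.1% of all windows, in 1 place in the window of *Kdr*, 2 in that of *Tek*, and in none of those of *Flt1* and *Cldn5*. A match here is a description of letters and not of a bound site.

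Compared per kilobase of exon in *Chd8*+/+ neocortex, the level was highest for *Cdh5*, which encodes VE-cadherin, at 15.5 ± 0.0654 CPM per kb. *Cldn5* followed at 8.97 ± 0.282 and *Kdr* at 8.77 ± 0.159 CPM per kb, and these neighbours did not differ beyond their spread. *Tie1* was at 6.45 ± 0.111, *Pecam1* at 6.05 ± 0.0406, *Esam* at 5.61 ± 0.0403 and *Tek* at 4.33 ± 0.183 CPM per kb. The lowest 3 were *Emcn* at 2.42 ± 0.155, *Flt1* at 1.83 ± 0.108 and *Vwf* at 1.75 ± 0.285 CPM per kb, the last pair within their spread. In Ctrl telencephalon at E10.5 *Cdh5* again led at 12.3 ± 0.957 CPM per kb, while *Vwf* was at 0.213 ± 0.117. No exon base of the 10 genes was shared with another gene of GENCODE vM21, which matters because the reads were counted without regard to strand.

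**Figure D1:**
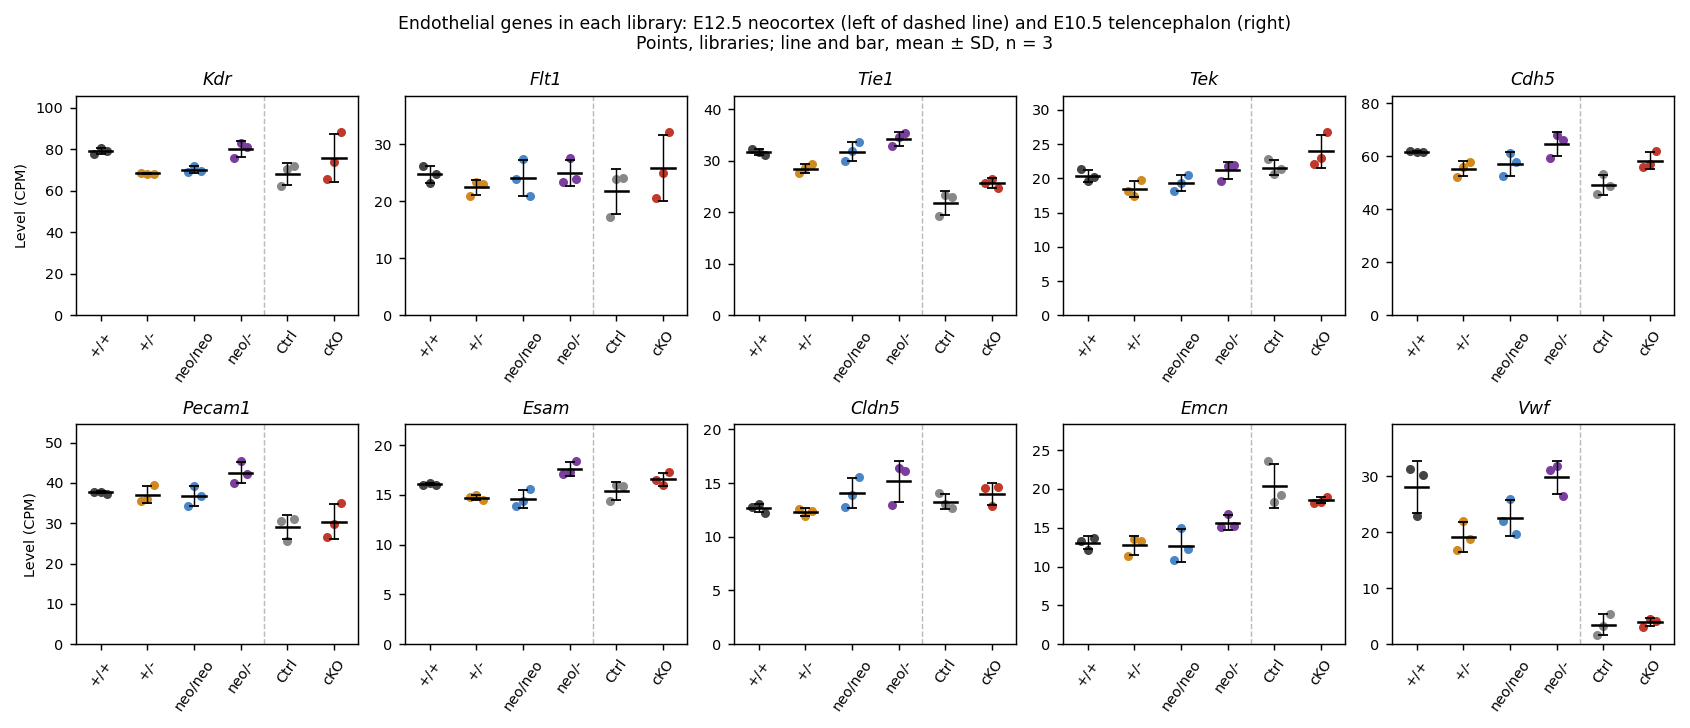
Level in CPM (vertical axis, from 0) of each gene in the 12 E12.5 libraries and the 6 E10.5 libraries, with points for libraries and line and bar for mean ± SD (n = 3). *Chd8* neo/- has the highest mean of the 4 genotypes in all 10 panels, and *Vwf* is low in every E10.5 library.

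In *Chd8*+/- neocortex all 10 genes had lower mean levels than in *Chd8*+/+, by log2 values from -0.02 (*Pecam1*) to -0.55 (*Vwf*). *Kdr* was at 68.7, 68.3 and 68.3 CPM in the *Chd8*+/- libraries and at 77.8, 80.7 and 79.1 CPM in the *Chd8*+/+ libraries. The groups did not overlap, and the log2 fold change was -0.21. *Vwf* was at 16.8, 21.9 and 18.8 CPM against 31.3, 22.8 and 30.2 CPM, a log2 fold change of -0.55, and the groups did not overlap, although the second *Chd8*+/+ library came close to the highest *Chd8*+/- library. *Cdh5* was at 52.1, 55.9 and 57.7 CPM against 62.0, 61.6 and 61.5 CPM. *Tie1* (27.6 to 29.3 against 31.1 to 32.2 CPM) and *Esam* (14.47 to 14.97 against 15.99 to 16.21 CPM) were also below every *Chd8*+/+ library. *Flt1*, *Tek*, *Pecam1*, *Cldn5* and *Emcn* had overlapping groups. Of all genes tested, 5.9% were lower and 5.48% higher without overlap in this comparison, beside 5 and 0 of the 10 genes. Since this contrast chose the genes, nothing follows from those counts. The summed level of 11 meningeal and mesenchymal markers was 607 to 1242 CPM in *Chd8*+/- and 715 to 901 CPM in *Chd8*+/+, and its part in these values was not tested.

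In *Chd8* neo/neo neocortex 1 of the 10 genes passed the test, *Kdr*, which was lower than in *Chd8*+/+. Over all genes the same test called 8.16%. *Kdr* was at 69.1, 72.0 and 69.5 CPM, below all 3 *Chd8*+/+ libraries (77.8 to 80.7 CPM), a log2 fold change of -0.17 (SE 0.04, adjusted p = 0.0236, edgeR quasi-likelihood test). The *Chd8*+/+ libraries of this comparison are the ones that served in choosing the genes. Because *Kdr* was chosen as lower in *Chd8*+/- than in these libraries, the choice can favour a lower value here as well. The call was lost when *Chd8*+/+ replicate 2 (adjusted p = 0.0974), *Chd8*+/+ replicate 3 (0.0718), *Chd8* neo/neo replicate 1 (0.0729) or *Chd8* neo/neo replicate 2 (0.0515) was left out, and when only the 6 libraries compared were fitted (0.0761).

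Of the other genes, *Cdh5* (52.4, 61.3 and 57.9 CPM) and *Esam* (13.9, 14.3 and 15.6 CPM) also had every *Chd8* neo/neo library below every *Chd8*+/+ library. Their adjusted p-values were 0.307 and 0.166 in edgeR's test. Lower without overlap were thus 3 of the 10 genes, beside 13.5% of all genes, and higher without overlap 0 of 10, beside 12.5%. *Vwf* was at 22.02, 25.98 and 19.72 CPM, a log2 fold change of -0.32 (SE 0.14, adjusted p = 0.198), and overlapped *Chd8*+/+. *Cldn5*, a tight junction claudin, had the largest positive value, 0.15 (SE 0.09, adjusted p = 0.317). The 5 remaining genes, *Flt1*, *Tek*, *Tie1*, *Pecam1* and *Emcn*, had log2 values between -0.08 and 0.00. The median over the 10 genes was -0.06, beside 0.01 over all genes.

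None of the 10 genes passed the test in *Chd8* neo/- against *Chd8*+/+ neocortex (0 of 10 by edgeR and by DESeq2, with 11.5% of all genes called by edgeR), although all 10 mean levels were higher. At an unadjusted p under 0.05 there were 4 of the 10 genes, beside 4991 of all 18810 genes. *Pecam1*, also known as CD31, was at 40.0, 45.4 and 42.3 CPM against 37.9, 37.8 and 37.4 CPM, a log2 fold change of 0.18 (95% interval 0.05 to 0.31, adjusted p = 0.0798). *Emcn* was at 15.04, 16.71 and 15.26 CPM against 13.3, 12.1 and 13.7 CPM, a log2 fold change of 0.26 (95% interval 0.04 to 0.49, adjusted p = 0.125). *Cldn5* was at 12.99, 16.39 and 16.11 CPM against 12.78, 13.03 and 12.25 CPM, a value of 0.26 (adjusted p = 0.0824), with the first *Chd8* neo/- library inside the *Chd8*+/+ range. *Esam* was at 17.1, 17.3 and 18.4 CPM against 16.05, 16.21 and 15.99 CPM, a value of 0.13 (adjusted p = 0.180). Every library of *Chd8* neo/- was above every library of *Chd8*+/+ for *Tie1*, *Pecam1*, *Esam* and *Emcn*, that is 4 of 10 genes, beside 16.4% of all genes, and 0 of 10 were lower without overlap, beside 16.9%. *Kdr* (75.9, 83.2 and 81.3 CPM) and *Flt1* (23.4, 27.5 and 23.9 CPM) had log2 values of 0.02 (95% interval -0.07 to 0.11) and 0.01 (95% interval -0.18 to 0.21). When only the 6 libraries compared were fitted, *Pecam1* (adjusted p = 0.0480) and *Emcn* (0.0307) passed, and *Cldn5* passed without *Chd8* neo/- replicate 1 (0.0292).

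The 2 hypomorphs were also compared with each other. Their levels come from libraries that did not serve in choosing the genes, but the spread behind the intervals and p-values was estimated over all 12 E12.5 libraries, those of *Chd8*+/+ and *Chd8*+/- included. All 10 mean levels were higher in *Chd8* neo/- than in *Chd8* neo/neo, with a median log2 value of 0.18, beside 0.00 over all genes, and 0 of 10 passed edgeR's test. That test called 0.0159% of all genes, 3 of 18810. At an unadjusted p under 0.05, 6 of the 10 genes passed, beside 1585 of all 18810 genes. *Kdr* differed by a log2 value of 0.19 (95% interval 0.10 to 0.28, unadjusted p = 0.000409, adjusted p = 0.343 in edgeR), and DESeq2 called it with an adjusted p of 0.0404. *Esam* differed by 0.27 (95% interval 0.14 to 0.40, adjusted p = 0.343), *Pecam1* by 0.21 (0.08 to 0.34, adjusted p = 0.479), *Emcn* by 0.30 (0.08 to 0.53, adjusted p = 0.524) and *Vwf* by 0.40 (0.09 to 0.72, adjusted p = 0.536). For these 5 genes no *Chd8* neo/- library fell within the range of *Chd8* neo/neo, against 7.99% of all genes higher without overlap, and 0 of 10 genes were lower without overlap, beside 7.19%. The sex-linked gene *Xist* was over 100 CPM in 2 of 3 *Chd8* neo/neo and 0 of 3 *Chd8* neo/- libraries. With this class as a covariate 0 of 10 genes passed.

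**Figure D2:**
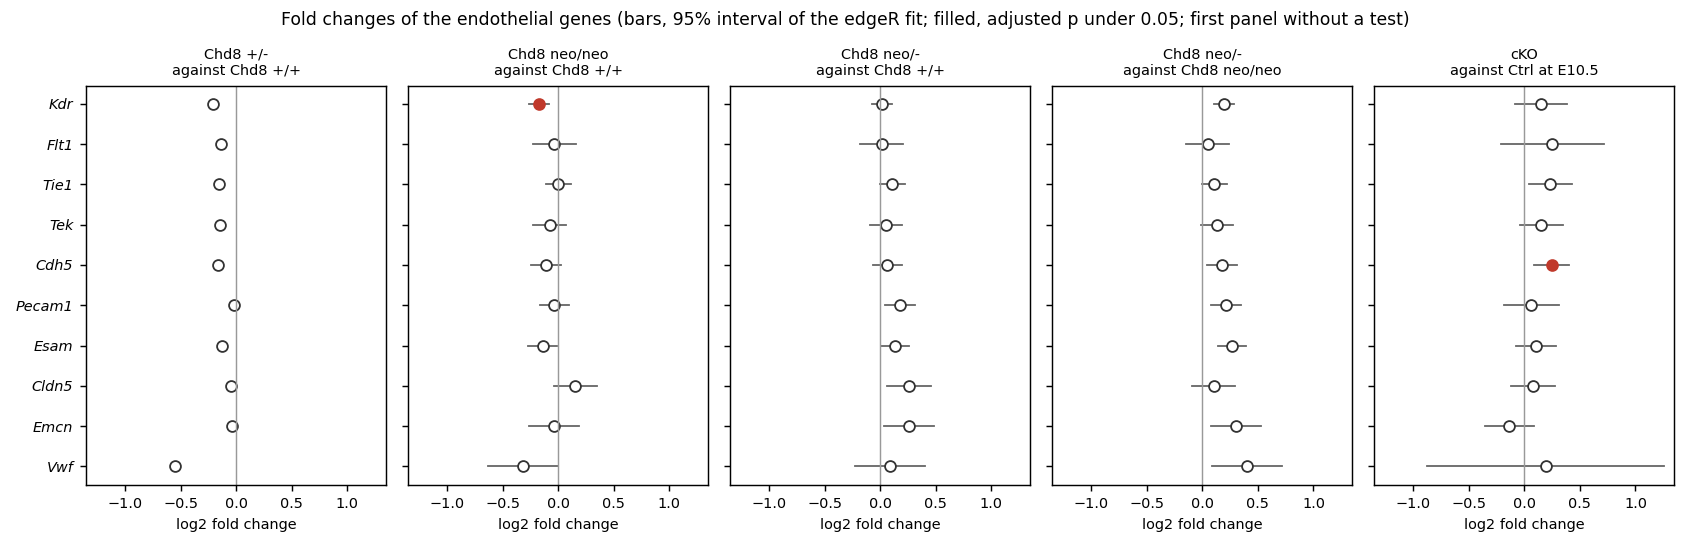
Log2 fold change (horizontal axis) of each gene in 5 comparisons, with the 95% interval of the edgeR fit as bar and genes with an adjusted p under 0.05 filled; the first panel carries no test. The filled points are *Kdr* at -0.17 in *Chd8* neo/neo and *Cdh5* at 0.25 in cKO.

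In the order of means at E12.5, *Chd8* neo/- was highest for 10 of 10 genes, and the lowest group was *Chd8*+/- for 7 genes and *Chd8* neo/neo for *Pecam1*, *Esam* and *Emcn*. Neighbouring groups mostly overlapped. *Kdr* had *Chd8*+/- lowest, *Chd8* neo/neo just above it without overlap, and *Chd8*+/+ and *Chd8* neo/- overlapping each other above both. *Esam* had *Chd8*+/- and *Chd8* neo/neo together at the bottom, *Chd8*+/+ above both and *Chd8* neo/- above all others. For *Flt1*, *Tek*, *Cldn5* and *Vwf*, every group overlapped its neighbour in the order. These orders include the contrast that chose the genes and share 1 set of *Chd8*+/+ libraries.

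Libraries of 1 genotype also differed in how many of the 10 genes lay above the control mean. In *Chd8* neo/- replicate 2, 10 of 10 genes were above the *Chd8*+/+ mean, in replicate 3, 8 of 10, and in replicate 1, 6 of 10. The *Chd8* neo/neo libraries had 1, 5 and 3 genes above it and the *Chd8*+/- libraries 0, 1 and 2. Over the 12 libraries, each gene's log2 CPM correlated with the mean of the other 9 genes at Pearson's r between 0.55 (*Cldn5*) and 0.94 (*Cdh5*). These values are a description over 12 libraries that include the genotypes used in choosing the genes. After the genotype means had been subtracted, r stayed at 0.92 for *Cdh5*, 0.84 for *Emcn* and 0.84 for *Pecam1*, and was 0.27 for *Vwf* and 0.09 for *Esam*. Over the 6 E10.5 libraries r with the other 9 genes ranged from -0.69 for *Emcn* and -0.06 for *Cldn5* to 0.93 for *Flt1*, so the genes did not all vary together there. The spread between replicates of *Vwf* was among the widest, with a coefficient of variation of 16.3% in *Chd8*+/+ and 14.02% in *Chd8* neo/neo, where the medians over the 10 genes were 2.48% and 7.32%.

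**Figure D3:**
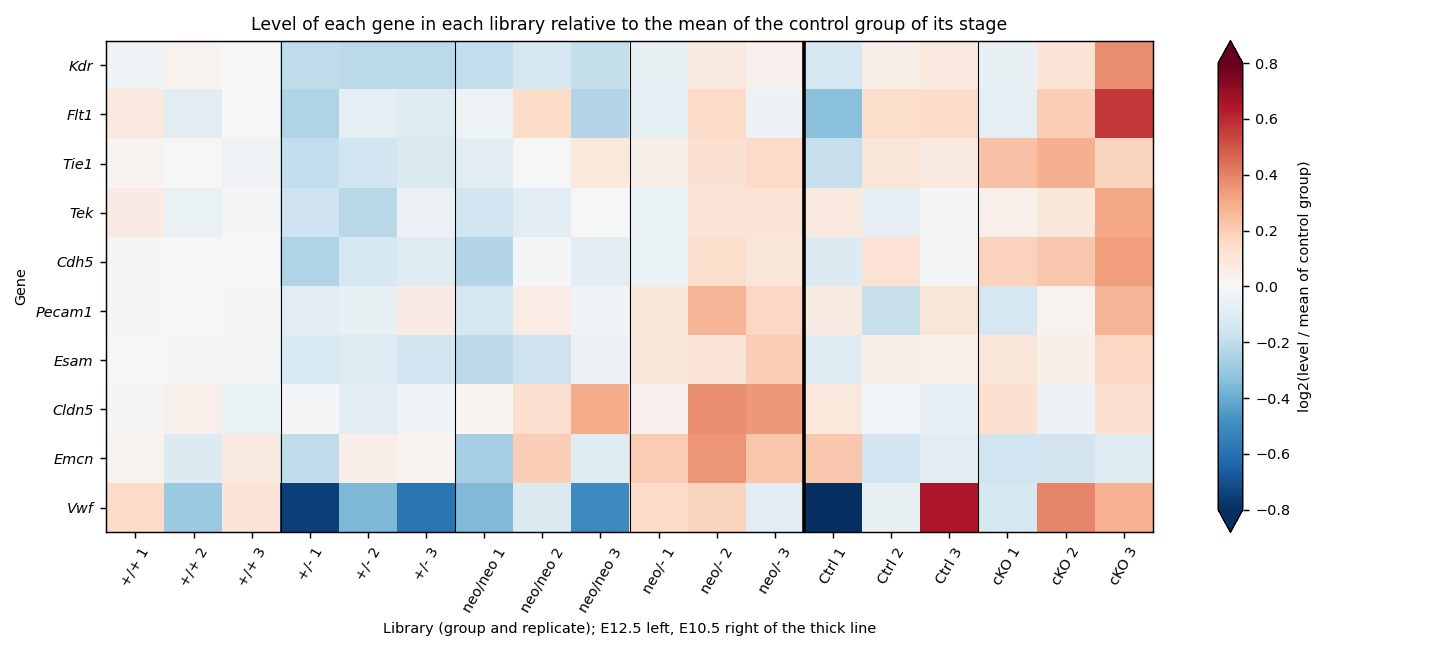
Log2 ratio of each gene in each library to the mean of the control group of its stage (rows, genes; columns, the 18 libraries; blue below, red above, values past the ends of the scale in the end colours). In *Chd8* neo/- replicate 2 all 10 genes lie above the *Chd8*+/+ mean, and in *Chd8*+/- replicate 1 none does.

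The 10 genes, members of this set apart, whose log2 CPM was most like the mean of the set over the 12 E12.5 libraries were *Acvrl1* (Pearson's r = 0.93), *Sox7* (0.92), *Syt15* (0.92), *Icam2* (0.91), *Arpc1b* (0.90), *Itpr3* (0.89), *Gm37914* (0.88), *Arap3* (0.88), *Cd34* (0.88) and *Ets1* (0.87). The median r over all 18810 genes was 0.02. *Acvrl1*, a BMP receptor of endothelium, *Icam2* and *Cd34* belong to the list of other pan-endothelial genes used below, and *Sox7* to that of endothelial transcription factors. That list of 27 pan-endothelial genes had a median r of 0.75. All these r values include the *Chd8*+/- and *Chd8*+/+ libraries, whose contrast chose the set. In that contrast 17 of the 27 genes were also lower without overlap. The r values are therefore a description, and their part within genotypes was not tested. At E10.5, over 6 libraries, *Acvrl1* (0.96), *Itpr3* (0.94) and *Ets1* (0.84) again had high values, whereas *Icam2* (-0.38) and *Cd34* (-0.59) did not.

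The question at E10.5 was what complete loss of *Chd8* in the neural lineage changes, and its libraries played no part in choosing the genes. In cKO telencephalon 1 of 10 genes passed the test, *Cdh5*, which was higher than in Ctrl, where 11.4% of all genes were called. *Cdh5* was at 55.9, 57.0 and 62.0 CPM in cKO and at 45.6, 53.2 and 48.8 CPM in Ctrl, with no overlap. The log2 fold change was 0.25 (SE 0.07, adjusted p = 0.0484, edgeR quasi-likelihood test). The call was lost without Ctrl replicate 1 (adjusted p = 0.115), Ctrl replicate 3 (0.144), cKO replicate 1 (0.0636), cKO replicate 2 (0.136) or cKO replicate 3 (0.188), and in the second sequencing run alone (0.131).

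*Tie1* was at 25.7, 26.6 and 24.6 CPM in cKO against 19.2, 23.3 and 22.9 CPM in Ctrl, also without overlap, and had a log2 value of 0.23 (95% interval 0.04 to 0.42, adjusted p = 0.112). Higher without overlap were therefore 2 of 10 genes, beside 15.7% of all genes, and lower without overlap 0 of 10, beside 16.6%. *Kdr* was at 65.6, 73.6 and 88.2 CPM against 62.2, 70.4 and 72.0 CPM, a value of 0.15 (95% interval -0.08 to 0.39). *Flt1* reached 32.1 CPM in cKO replicate 3, where the other cKO libraries had 20.6 and 24.9 and Ctrl had 17.18, 23.87 and 24.05 CPM. The same cKO library was the highest of the 6 for *Kdr*, *Flt1*, *Tek*, *Cdh5*, *Pecam1*, *Cldn5* and *Esam*. *Emcn* was the gene with a lower mean in cKO, at 18.25, 18.36 and 18.98 CPM against 23.6, 18.3 and 19.2 CPM, a value of -0.14 (95% interval -0.35 to 0.08). *Vwf* was at 3.12, 4.49 and 4.16 CPM against 1.62, 3.29 and 5.37 CPM, and its interval, -0.87 to 1.26, leaves the direction undetermined. The median over the 10 genes was 0.15, beside 0.00 over all genes.

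Set side by side after joint scaling of the 18 libraries, *Vwf* had the widest gap between the stages, with a mean of 3.40 CPM in Ctrl telencephalon at E10.5 (1.63 to 5.33) and of 28.2 CPM in *Chd8*+/+ neocortex at E12.5 (22.95 to 31.36), a ratio of 8.30. Its lowest count in a library was 85 at E10.5 and 968 in *Chd8*+/+ at E12.5. *Tie1* (ratio 1.47), *Pecam1* (1.31), *Cdh5* (1.27), *Kdr* (1.17) and *Esam* (1.05) were higher in each of the 3 *Chd8*+/+ libraries than in each of the 3 Ctrl libraries. *Emcn* was the opposite, with 20.2 CPM (18.01 to 23.71) at E10.5 and 13.1 CPM (12.2 to 13.8) at E12.5. *Flt1*, *Tek* and *Cldn5* overlapped. No test was made, because stage, dissected tissue, pooling and sequencing run cannot be told apart, and groups did not overlap for 70.8% of the 19565 genes compared.

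**Figure D4:**
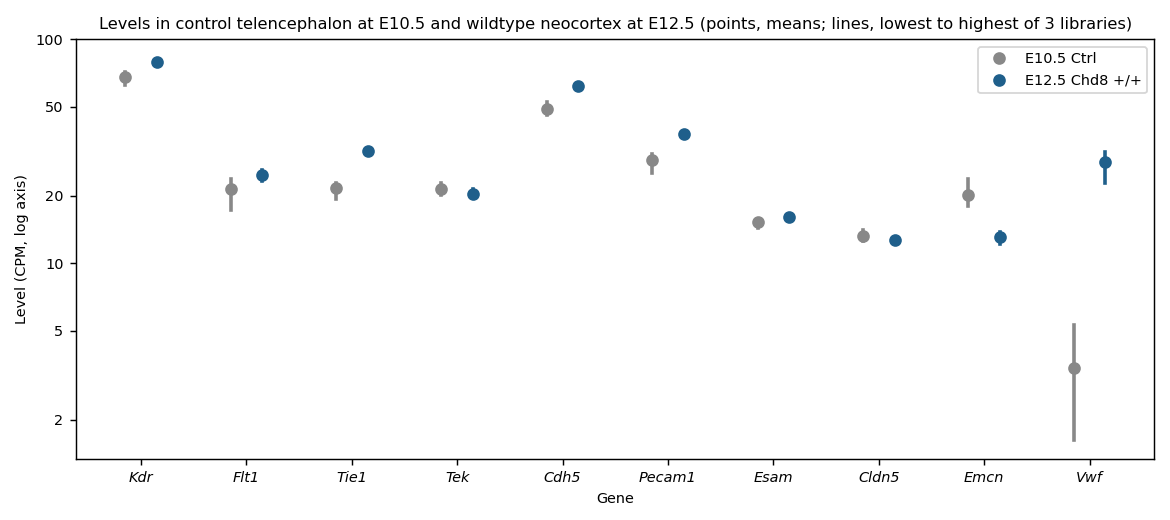
Level in CPM (vertical log axis) of each gene in Ctrl telencephalon at E10.5 (grey) and *Chd8*+/+ neocortex at E12.5 (blue), with points for means and lines from the lowest to the highest of 3 libraries. *Vwf* has means of 3.40 and 28.2 CPM at the earlier and later stage, and *Emcn* of 20.2 and 13.1 CPM.

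Other genes of vessels were taken from lists chosen with earlier results of these data known. Among 13 genes listed around the VEGF, angiopoietin and apelin pathways, *Vegfa* and *Vegfb* had the highest levels per kb averaged over all groups of both stages. In *Chd8*+/+ neocortex they were at 18.9 ± 2.88 and 15.7 ± 1.25 CPM per kb. The most abundant genes of the lists below were ranked by the same average, while the levels printed are those in *Chd8*+/+. In *Chd8* neo/neo neocortex 3 of 13 passed the test, beside 8.16% of all genes, all lower: *Nrp1* (log2 -0.28, adjusted p = 0.0194) and *Nrp2* (-0.44, adjusted p = 0.0364), the neuropilins, which neurons also express, and *Ptprb* (-0.32, adjusted p = 0.0201), an endothelial phosphatase. In cKO the apelin receptor *Aplnr* rose by 0.33 (adjusted p = 0.0133), and 0 of 13 passed in the other comparisons.

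The 27 other pan-endothelial genes had lower values in *Chd8*+/- than in *Chd8*+/+ for 24 genes, 17 of them without overlap, where 5.9% of all genes were lower without overlap. This is given without a test because that contrast chose the set. In *Chd8* neo/neo 1 of 27 passed, beside 8.16% of all genes: *Fgd5*, lower by a log2 value of -0.29 (adjusted p = 0.0198). In *Chd8* neo/- 2 of 27 passed, beside 11.5% of all genes: *Ecscr* (0.41, adjusted p = 0.0103) and *Ramp2* (0.30, adjusted p = 0.0338), both higher. Between the hypomorphs 24 of 27 were higher in *Chd8* neo/-, with a median of 0.18, and 0 of 27 passed edgeR's test. In cKO, where 11.4% of all genes were called, *Robo4* (0.36, adjusted p = 0.0463) and *Thsd1* (0.34, adjusted p = 0.0459) rose and *S1pr1* (-0.36, adjusted p = 0.0339) fell. *S1pr1*, a sphingosine phosphate receptor that neural cells also express, was the most abundant gene of the list per kb (15.7 ± 0.472 CPM per kb in *Chd8*+/+), ahead of *Plvap* (8.98 ± 0.651).

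Of 14 endothelial transcription factors 13 were tested, with *Lmo2* (14.2 ± 0.407 CPM per kb in *Chd8*+/+) and *Sox18* (3.92 ± 0.391) the most abundant. *Fli1*, an ETS factor, rose in cKO by 0.45 (adjusted p = 0.0165), and 0 of 13 passed in the 3 comparisons at E12.5. Among 9 Notch and ephrin genes, of which *Efnb2* (54.8 ± 2.08) and *Hey1* (21.3 ± 0.762 CPM per kb) were the highest, *Jag1* rose in cKO by 0.35 (adjusted p = 0.0172), and 0 of 9 passed at E12.5. The 16 blood-brain barrier genes were led by the glucose transporter *Slc2a1* (39.0 ± 0.336 CPM per kb) and the transferrin receptor *Tfrc* (23.5 ± 0.805). *Lsr*, a tricellular junction protein, was lower in *Chd8* neo/- (-0.31, adjusted p = 0.0201). In cKO *Mfsd2a*, a lipid transporter of the barrier, fell by 0.29 on the log2 scale (adjusted p = 0.0368) and *Adgra2*, a co-receptor of WNT7 signalling, rose by 0.49 (adjusted p = 0.0472). *Efnb2*, *Slc2a1*, *Tfrc* and *Hey1* had higher levels in *Chd8*+/+ than *Cdh5* (15.5 CPM per kb). The tissue was whole, and whether changes in these lists came from endothelial cells was not tested.

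The vascular basement membrane, the sheet of collagen IV, laminin and nidogen around vessels, was the list with the most calls. In *Chd8* neo/neo all 9 genes had lower values and 4 of 9 passed, beside 8.16% of all genes: *Lamb1* (-0.38, adjusted p = 0.0136), *Col4a2* (-0.29, adjusted p = 0.00972), *Nid2* (-0.25, adjusted p = 0.0222) and *Col4a1* (-0.24, adjusted p = 0.0301). In cKO all 9 had higher values and 5 of 9 passed, beside 11.4% of all genes: *Col4a2* (0.51, adjusted p = 0.00938), *Nid1* (0.40, adjusted p = 0.0270), *Col4a1* (0.38, adjusted p = 0.0279), *Lamb1* (0.36, adjusted p = 0.00725) and *Lamc1* (0.32, adjusted p = 0.0281). In *Chd8* neo/- and between the hypomorphs 0 of 9 passed. *Sparc* (63.8 ± 1.89 CPM per kb in *Chd8*+/+) and *Col4a1* (55.5 ± 1.44) were the most abundant. The meninges also make several of these proteins. In *Chd8* neo/neo 9 of 11 meningeal and mesenchymal markers had lower values and 2 higher, with a median of -0.11, and 0 of 11 passed. Their summed level was 587 to 749 CPM, against 715 to 901 CPM in *Chd8*+/+. Its part in the basement membrane values was not tested. Values of these markers in cKO are given below.

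**Figure D5:**
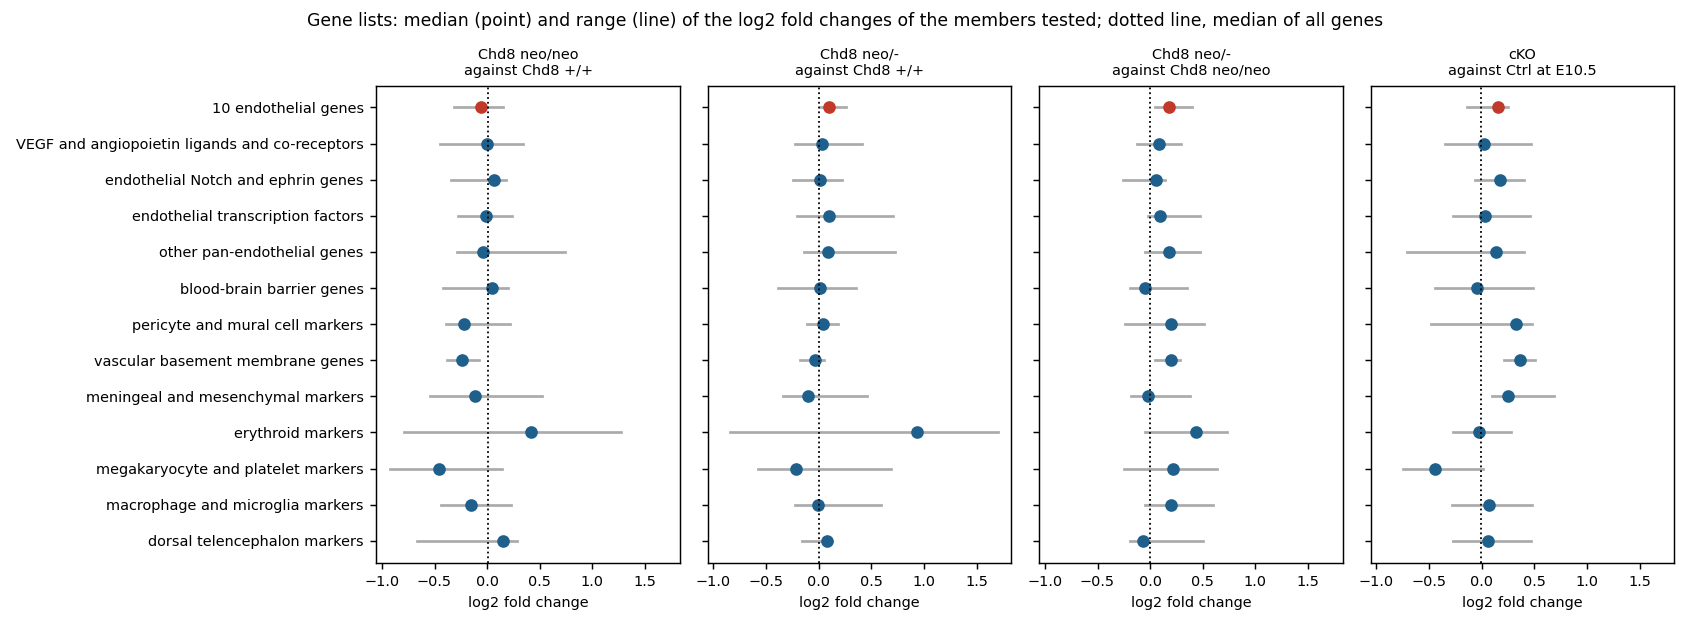
Median (point) and range (line) of the log2 fold changes of the genes tested in each list, in the 4 tested comparisons, with the 10 endothelial genes in red and the median of all genes as dotted line. The median of the basement membrane genes is -0.24 in *Chd8* neo/neo and 0.36 in cKO, and that of the 10 endothelial genes -0.06 and 0.15.

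Of 12 markers of pericytes, the mural cells of small vessels, 9 had lower and 3 higher values in *Chd8* neo/neo. There 2 passed, beside 8.16% of all genes, both lower: *Abcc9* (-0.39, adjusted p = 0.00976) and *Anpep* (-0.37, adjusted p = 0.0466). In cKO 7 of 11 tested had higher values and 4 lower, down to a log2 value of -0.48. Of the 11, 4 passed, all higher, beside 11.4% of all genes: *Notch3* (0.37, adjusted p = 0.00359), *Pdgfrb* (0.44, adjusted p = 0.0220), *Anpep* (0.44, adjusted p = 0.0350) and *Des* (0.48, adjusted p = 0.0482). *Notch3* (20.5 ± 3.31 CPM per kb in *Chd8*+/+) and *Mcam* (13.7 ± 0.891) were the most abundant. The pericyte marker *Rgs5* was at 0.409 to 0.638 CPM in the E10.5 libraries and at 19.5 to 37.7 CPM at E12.5. In Ctrl at E10.5, by contrast, *Notch3* was at 170 ± 8.89 CPM and *Pdgfrb* at 38.4 to 51.9 CPM. Whether the higher values in cKO came from mural cells was not tested.

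Markers of other cells also differed in some of these comparisons. In cKO, where 11.4% of all genes were called, 3 of 11 meningeal and mesenchymal markers passed, all higher: *Pdgfra* (0.41, adjusted p = 0.00142), *Col1a2* (0.40, adjusted p = 0.0130) and *Col3a1* (0.44, adjusted p = 0.0271). The summed level of that list was 1029 to 1220 CPM in cKO and 831 to 923 CPM in Ctrl, with 0 of 11 markers at 0 counts, and its part in the results at E10.5 was not tested. *Col3a1* and *Lum* were its most abundant genes, at 36.6 ± 3.91 and 28.4 ± 2.77 CPM per kb in *Chd8*+/+. In *Chd8* neo/-, where the 10 genes had their highest means, 5 of 11 erythroid markers passed, beside 11.5% of all genes. All 5 were higher, among them *Hbb-bh1* (1.61, adjusted p = 0.0425), *Klf1* (1.13, adjusted p = 0.0433), *Hba-x* (0.94, adjusted p = 0.0433) and *Slc4a1* (1.04, adjusted p = 0.0466). The summed level of the 11 markers was 4573 to 7109 CPM in *Chd8* neo/- and 3207 to 3923 CPM in *Chd8*+/+, with *Hbb-y* (2974 ± 338 CPM per kb in *Chd8*+/+) and *Hba-x* (944 ± 141) the most abundant and 0 of 11 markers at 0 counts. The erythroid sum was also highest in *Chd8* neo/- replicate 2, the library with 10 of 10 endothelial genes above the *Chd8*+/+ mean, and the part of blood content in the endothelial values was not tested.

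Megakaryocytes share *Vwf* with the endothelium. The summed level of 10 megakaryocyte and platelet markers, led by *Pf4* (6.87 ± 0.589 CPM per kb in *Chd8*+/+) and *Ppbp* (4.40 ± 0.791), was 27.3 to 33.0 CPM in *Chd8*+/+, 18.998 to 28.08 in *Chd8*+/-, 20.4 to 25.4 in *Chd8* neo/neo and 23.1 to 32.2 in *Chd8* neo/-, with 0 of 10 at 0 counts. The ranges of the sum in *Chd8*+/- and *Chd8* neo/neo overlapped. The part of these cells in the *Vwf* values was not tested. At E10.5, where *Vwf* was low, the sum was 26.96 to 42.04 CPM in Ctrl and 26.3 to 32.6 CPM in cKO, and *Pf4* fell in cKO by 0.61 on the log2 scale (adjusted p = 0.0153). Of 13 macrophage and microglia markers, *Lyve1*, which some endothelium also expresses, was higher in *Chd8* neo/- (0.59, adjusted p = 0.0339) and *Cx3cr1* in cKO (0.48, adjusted p = 0.0162), and 0 of 13 were at 0 counts. *Cd68* (5.49 ± 1.10 CPM per kb in *Chd8*+/+) and *C1qb* (5.20 ± 0.635) were the highest of this list. Of 9 markers of the dorsal telencephalon, led by *Sox2* (108 ± 9.23 CPM per kb) and *Lhx2* (96.3 ± 4.32), *Pax6* (0.19, adjusted p = 0.0199) and *Sox2* (0.29, adjusted p = 0.0251) were higher in *Chd8* neo/neo. *Neurod6*, a marker of differentiating neurons, was at 0 counts in all E10.5 libraries.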

How the data were processed

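Counts of mouse embryonic cortex were analysed from 18 libraries, 12 at E12.5 and 6 at E10.5. Per the study's methods and the submitters' processing notes, the authors trimmed paired reads with Trim Galore 0.4.1, aligned them to GRCm38.p4 with TopHat2 2.1.0 and counted them per gene with featureCounts 1.5.0. The deposited values are raw counts per gene and run, not normalised or filtered. The header of the E12.5 table gives no strand option, although the libraries were made with dUTP. The 2 runs of each library were summed here, and 0 columns were left unmapped. Symbols were found for 46005 of 46603 genes (598 without).

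Genes were filtered with filterByExpr and tested with edgeR 4.0.16 (R 4.3.3; TMM, robust quasi-likelihood fit, Benjamini-Hochberg over all genes tested, threshold 0.05), with the 12 E12.5 libraries in 1 fit by genotype and the 6 E10.5 libraries in another. Levels are CPM with TMM factors, and log2 CPM used a prior count of 2. Standard errors are the log2 fold change over the square root of F. The scripts were tested on simulated counts. The members and the gene lists were chosen with earlier results of these data known. Named were all 10 members, up to 5 genes per list and comparison with the smallest adjusted p under 0.05, and the 10 genes most like the members. Also named were the 2 genes of each list with the highest level per kb, averaged over all groups of both stages. *Emx1*, *Rgs5*, *Neurod6* and *Xist* were named after their values were seen, and 1 gene that the rule names is not reported here. Alternatives were DESeq2 1.42.0, RLE scaling, no filter, a replicate block, each run alone, only the 6 libraries compared, *Xist* class (over 100 CPM) as covariate and each library left out. Same-numbered libraries were checked for shared deviations. Promoter windows came from RefSeq, with 1 chromosome left out of the share over all windows. Gene overlaps were taken from GENCODE vM21. Figures were drawn with matplotlib. Intervals cover the spread between libraries, and replicates of the E10.5 groups are pools of embryos.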

Additional observations from a re-analysis of the deposited data

How the results depend on the processing

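Over the refits of the 10 genes in the 4 tested comparisons, direction and side of the threshold stayed for 501, direction reversed for 24, a call was lost in 11 and gained in 4. For *Chd8* neo/neo against *Chd8*+/+, *Tie1* turned to -0.01 without the filter on low counts, to -0.00017 under the replicate block and to -0.01977 in the second run alone, and *Flt1* to 0.01211 in the first run alone. In the first run alone *Kdr* (-0.02949) and *Flt1* (-0.0040) turned for *Chd8* neo/- against *Chd8*+/+, and *Flt1* (-0.0161) for *Chd8* neo/- against *Chd8* neo/neo. The cause was not tested.

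With each library left out in turn, the log2 fold changes for *Chd8* neo/neo against *Chd8*+/+ ranged from -0.04867 to 0.03776 for *Tie1*, -0.1408 to 0.04665 for *Flt1*, -0.08725 to 0.006766 for *Pecam1*, -0.18 to 0.05212 for *Emcn* and -0.20 to -0.15 for *Kdr*. For *Chd8* neo/- against *Chd8*+/+ they ranged from -0.01388 to 0.04973 for *Kdr*, -0.06621 to 0.05192 for *Flt1* and -0.03634 to 0.1632 for *Vwf*, for *Chd8* neo/- against *Chd8* neo/neo from -0.03593 to 0.1515 for *Flt1*, and for cKO against Ctrl from -0.1439 to 0.6779 for *Vwf* and -0.05157 to 0.1557 for *Pecam1*. The number of the 10 genes called ranged from 0 to 1 for *Chd8* neo/neo, from 0 to 1 for *Chd8* neo/- against *Chd8*+/+ and from 0 to 1 for cKO.

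Fitted on only the 6 libraries compared, 0 genes were called for *Chd8* neo/neo and 2 for *Chd8* neo/- against *Chd8*+/+, where fewer libraries estimate the spread. DESeq2 called 1 for *Chd8* neo/- against *Chd8* neo/neo, and the second run alone called 0 for cKO. Of all genes, 1534 were called for *Chd8* neo/neo, 1005 with sex-linked expression as covariate, 430 with only the 6 libraries compared and 435 to 2605 with 1 library left out. For *Chd8* neo/- against *Chd8*+/+ 2158 were called and 1015 to 1539 with 1 library left out, and for cKO 2110 and 538 to 2483. Between the hypomorphs 3 were called, 27 by DESeq2, 9 without the filter, 1 with only the 6 libraries compared and 1 to 23 with 1 library left out.

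The replicate numbers did not pair the samples: correlations of same-numbered libraries' deviations lay between -0.27 and 0.11, and no comparison had every pair over 0.1. With the replicate number as a block, 1 gene was called for *Chd8* neo/neo (*Kdr*, adjusted p = 0.0330 in edgeR), 0 for *Chd8* neo/- in either comparison and 1 for cKO (*Cdh5*, 0.0338), and all genes called numbered 1161, 1721, 2 and 2598. With 3 libraries per group, the 95% intervals of the 10 genes were widest for *Vwf* at E10.5.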
